A study of Mus musculus with 4 samples.

Results

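The 35 genes described here encode the machinery of fatty acid beta-oxidation, chosen by symbol: enzymes and carriers of the mitochondrial pathway, enzymes, a transporter and a peroxin of the peroxisomal pathway, and the regulators Ppara and Ppargc1a. All 35 matched 1 row each among the 31053 genes of the deposited matrices. They were measured by droplet single-cell RNA sequencing of whole kidney taken after ischemia-reperfusion (I/R), an injury of male C57BL/6 mice in which the renal blood supply is interrupted and restored. There were 4 libraries, 1 for each group: I/R after 5 days, after 14 days, after 28 days, and after 5 days in mice that had received Lactobacillus casei Zhang (Lac.z), a probiotic bacterium, by gavage at 1e9 CFU per day for 4 weeks before injury. All animals were injured, and no uninjured kidney was analysed here. The labels do not say what the mice without Lac.z were gavaged with, or how many animals gave each library.

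Beta-oxidation shortens fatty acids from their acyl-CoA form, and proximal tubule cells are known for relying on it for the energy of solute reabsorption. Long chains are activated by acyl-CoA synthetases such as Acsl1, enter mitochondria through the carnitine shuttle (Cpt1a, the carrier Slc25a20, Cpt2) and pass through a dehydrogenase, a hydratase, a second dehydrogenase and a thiolase, with electrons handed to the respiratory chain by the electron transfer flavoprotein (Etfa, Etfb) and its dehydrogenase Etfdh. Peroxisomes, fed by the transporter Abcd3, handle very long and branched chains. The nuclear receptor Ppara and the coactivator Ppargc1a switch many of these genes on.

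The libraries held between 76678882 and 104454319 unique molecular identifiers (UMIs, each counting 1 captured RNA molecule) in 8168 to 15583 cell barcodes, of which 6583 to 12376 were kept in each. Any 2 libraries shared between 15 and 43 barcodes. Cells were clustered without the 35 genes and without 110 other genes of fatty acid metabolism, and clusters were named from marker genes. Proximal tubule-like cells numbered 1351, 3786, 5534 and 9351 in the day 5, Lac.z, day 14 and day 28 libraries, the order kept below. Within them the 3 successive segments were marked as S1-like (564 to 3463 cells per library), S2-like (279 to 3358) and S3-like (7, 58, 465 and 294 cells). The 7 S3-like cells of the day 5 library held 61746 UMIs in all, so that a gene with 0 UMIs there could lie anywhere up to 48.6 CPM (counts per 1000000 UMIs). The summed level of the 8 S1 markers was 3638 to 5413 CPM in S1-like cells and 0 to 91.3 CPM in S3-like cells, and that of the 9 S3 markers was 1927 to 3892 CPM in S3-like cells and 40.3 to 69.1 CPM in S1-like cells. S2-like cells were less cleanly marked. They held 918 to 1191 CPM of the S1 markers and 755 to 969 CPM of the S3 markers. The 6 S2 markers summed to 2076 to 2774 CPM in S2-like, 851 to 938 CPM in S1-like and 551 to 1029 CPM in S3-like cells. No segment was named for 501, 924, 1763 and 2236 proximal tubule-like cells. Injured tubule-like cells, which carried Havcr1, Krt20, Lcn2 and other injury markers, numbered 133, 239, 322 and 76. The 13 injury markers summed to 12318 to 28451 CPM in them and to 909 to 4624 CPM in proximal tubule-like cells. Their sum was also high in thick ascending limb-like (4979 to 17453 CPM) and distal convoluted tubule-like cells (2299 to 11067 CPM). In principal-like and intercalated-like cells it was 5327 to 16348 and 3202 to 18407 CPM, so these markers are not particular to the injured class. Levels below are in CPM over the summed cells of a class in a library, and are not compared between genes. Classes were compared over the 4 libraries with edgeR, and a gene was called at an adjusted p under 0.05 and a fold of at least 1.5. With 1 library per group no test between days or between Lac.z and no Lac.z was possible.

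The summed level of the 35 genes was highest in proximal tubule-like cells. It was 5699, 5722, 6717 and 6538 CPM in the whole class, 4660 to 5496 CPM in S1-like cells and 5242 to 7069 CPM in S2-like cells. In S3-like cells it was 5668, 6603, 7400 and 8820 CPM, and in the proximal tubule-like cells that no segment's markers named 7696 to 7915 CPM. Injured tubule-like cells held 2635, 3489, 4012 and 3551 CPM, below the whole proximal class in each library. Thick ascending limb-like, distal convoluted tubule-like, intercalated-like and principal-like cells held 3701 to 4808, 3954 to 5074, 3589 to 4301 and 2845 to 3539 CPM, and endothelial-like, macrophage-like and T cell-like cells 1330 to 1739, 1084 to 1281 and 1131 to 1325 CPM. RNA freed from broken cells can give a low count in any droplet, so each gene's level outside the proximal tubule was set beside that of 12 proximal tubule markers, both as a percent of the proximal level. In thick ascending limb-like, distal convoluted tubule-like and intercalated-like cells 33 of the 35 genes were above 3 times the marker percent in all 4 libraries. In endothelial-like, macrophage-like and T cell-like cells 21, 20 and 20 were.

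**Figure D1:**
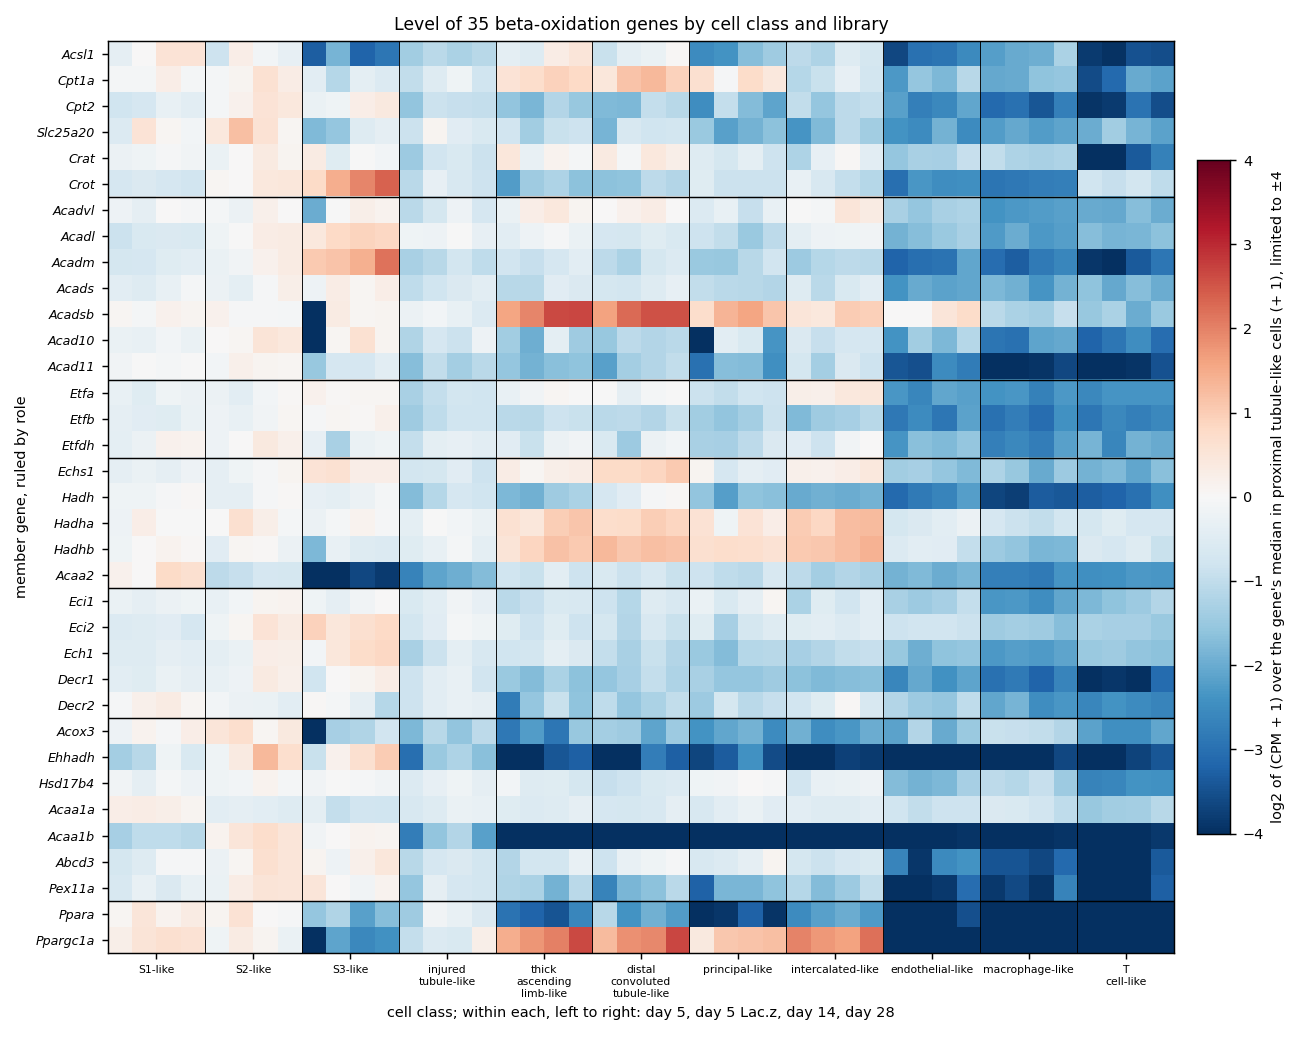
Level of each of the 35 genes (rows, grouped by role) in 11 cell classes and 4 libraries (columns), as log2 of CPM + 1 over the gene's median in proximal tubule-like cells, with the colour limited to ±4. Ppargc1a and Acadsb are red in the thick ascending limb-like and distal convoluted tubule-like columns, Acaa1b and Ehhadh are deep blue outside the proximal classes, and Acaa2 and Acsl1 are blue in S3-like cells.

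Promoters of 4 of the genes the results turn on are shown to place them in the genome and to mark the motifs counted below (RefSeq, GRCm38.p6; the 250 bases before the annotated start, 5′ to 3′ on the strand of the gene). Acadm, the medium-chain acyl-CoA dehydrogenase, has its promoter at chr3:153944644-153944893 on the minus strand, and Cpt1a, the outer-membrane carnitine palmitoyltransferase that starts the shuttle, at chr19:3323051-3323300 on the plus strand. Capitals in these 2 mark AGGTCA, the hexamer read by nuclear receptors of the Ppara type, which lies on the opposite strand in both and so reads TGACCT.
Acadm: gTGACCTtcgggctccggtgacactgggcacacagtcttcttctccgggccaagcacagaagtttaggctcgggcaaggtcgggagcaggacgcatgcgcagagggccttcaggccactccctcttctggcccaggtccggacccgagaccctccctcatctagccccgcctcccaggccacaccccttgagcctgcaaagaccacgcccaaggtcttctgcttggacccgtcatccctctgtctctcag
Cpt1a: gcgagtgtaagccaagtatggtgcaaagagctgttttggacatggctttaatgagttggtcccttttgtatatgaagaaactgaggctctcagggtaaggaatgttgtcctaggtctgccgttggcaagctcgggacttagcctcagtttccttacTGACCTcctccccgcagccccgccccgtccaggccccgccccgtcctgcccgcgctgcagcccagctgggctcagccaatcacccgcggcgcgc
Ehhadh, the bifunctional hydratase and dehydrogenase of peroxisomes, has its promoter at chr16:21787835-21788084 on the minus strand. Acaa1b, a peroxisomal thiolase, has its promoter at chr9:119157094-119157343, also on the minus strand. Capitals in these 2 mark the CCAAT box, again on the opposite strand and so printed as ATTGG.
Ehhadh: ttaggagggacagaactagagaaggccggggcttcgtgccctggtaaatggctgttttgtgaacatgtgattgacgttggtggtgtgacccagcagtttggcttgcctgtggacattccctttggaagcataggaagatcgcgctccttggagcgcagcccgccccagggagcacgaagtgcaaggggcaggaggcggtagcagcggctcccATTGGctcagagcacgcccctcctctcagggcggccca
Acaa1b: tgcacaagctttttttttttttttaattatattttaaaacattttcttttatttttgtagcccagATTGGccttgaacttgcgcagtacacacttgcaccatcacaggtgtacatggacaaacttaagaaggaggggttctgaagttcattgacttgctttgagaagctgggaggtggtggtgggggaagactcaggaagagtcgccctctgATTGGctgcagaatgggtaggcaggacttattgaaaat
The 4 genes span chr3:153922357-153944632 (Acadm), chr19:3322334-3385733 (Cpt1a), chr16:21761287-21787807 (Ehhadh) and chr9:119148023-119157093 (Acaa1b) in GRCm38. The printed Cpt1a window lies inside the span of its gene, so it precedes the RefSeq start used here but not the first base of that span. Of the 35 genes 12, Acaa1b and Crot included, have exons that overlap a gene on the other strand, and the labels do not say whether counting used strand. Of the 35 genes, 31 had a promoter in the RefSeq table, and each motif was searched on both strands of these windows and of those of all 27025 genes in the table. AGGTCA was present in 4 of the 31 (12.9%), namely Acadm, Acadvl, Cpt1a and Echs1, against 15.8% of all promoters. The direct repeat of this hexamer spaced by 1 base, the form of the full PPAR response element, was searched with the fourth base of each copy left free and was found in 0 of the 31 and in 0.4% of all. CCAAT was held by 12 of the 31 (38.7%) and 37.5% of all, and GGGCGG, the GC box, by 21 of the 31 (67.7%) and 35.4% of all.

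Along the proximal tubule the genes did not move as a block. In S3-like cells Crot, Acadm, Acadl, Eci2, Ehhadh, Acaa1b and Cpt2 were higher than in S1-like cells, while Acaa2, Acsl1 and Ppargc1a were lower, and these 10 were called under each of the 14 settings tried. Of the 35 genes 21 were called, 15 higher and 6 lower, where 17.8% of the 10227 genes tested were called higher and 23.4% lower. The median log2 fold change was 0.34 over the 35 genes and -0.06 over all genes tested. The split depended on centring. With library totals in place of TMM scaling, which put the median of all genes at -0.29, 9 of the 35 were higher and 10 lower, and with DESeq2, which put it at -0.22, 9 were higher and 8 lower. The median of all genes also moved to -0.28 without the Lac.z library (8 higher and 8 lower) or without the day 14 library (9 and 9), and to -0.27 with mitochondrially encoded genes left out, a setting chosen after seeing the data (9 and 9). Relative to all genes the median of the 35 was 0.41 with TMM and 0.38 to 0.42 in these 5 alternatives. In the other settings tried it ran from 0.23 with a per-cell marker gate to 0.66 with no filter.

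Among the shuttle genes, Crot, the peroxisomal carnitine octanoyltransferase that passes shortened chains on to mitochondria, stood at 243, 393, 557 and 744 CPM in the S3-like cells of the 4 libraries, against 90.3, 95.9, 90.1 and 84.1 CPM in S1-like cells. The groups did not overlap, and the log2 fold change was 2.66 ± 0.19 (SE, 4 libraries), or 6.3-fold (edgeR adjusted p = 7.4e-18). Acsl1, a long-chain acyl-CoA synthetase, went the other way, with 16.2, 45.1, 17.2 and 21.6 CPM in S3-like cells and 129, 166, 244 and 242 CPM in S1-like cells, 8.08-fold lower (log2 -3.01 ± 0.22, edgeR adjusted p = 9.6e-18). Cpt2, the inner-membrane transferase, was 1.84-fold higher. Cpt1a, by contrast, gave 64.8, 39.4, 66.8 and 60.0 CPM against 81.8, 83.4, 106 and 82.1 CPM, a log2 fold change of -0.42 ± 0.16 that did not reach the fold threshold (edgeR adjusted p = 0.020), although it did in the 4 settings that moved the median of all genes with DESeq2, library totals, the day 14 library left out or mitochondrial genes left out (-0.59 to -0.65). Slc25a20 (-0.45 ± 0.17) and Crat, carnitine acetyltransferase (0.21 ± 0.15), were not called.

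Acadm had the steepest course of the dehydrogenases. It stood at 988, 1069, 1284 and 2168 CPM in S3-like cells and at 296, 305, 342 and 363 CPM in S1-like cells, 4.59-fold higher (log2 2.20 ± 0.17, edgeR adjusted p = 1.1e-16), with S3-like cells above S1-like cells in all 4 libraries. Acadl, the long-chain dehydrogenase, was 3.03-fold higher (389, 503, 531 and 509 CPM against 159, 189, 193 and 190 CPM). Acads, for short chains, and Acad10 were 1.60-fold and 1.70-fold higher, whereas Acadvl, for very long chains, was not called (32.4, 128, 153 and 144 CPM against 114, 103, 133 and 125 CPM, log2 0.37 ± 0.17, edgeR adjusted p = 0.060). In electron transfer Etfb was called higher at 1.57-fold, while Etfa and Etfdh were not called.

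Acaa2, the mitochondrial 3-ketoacyl-CoA thiolase, was at 0, 16.9, 23.9 and 20.7 CPM in S3-like cells and at 345, 310, 523 and 484 CPM in S1-like cells. It was 19.0-fold lower (log2 -4.25 ± 0.21, edgeR adjusted p = 5.5e-25), the largest difference among the 35 genes in this contrast. The trifunctional protein subunits Hadha and Hadhb and the 3-hydroxyacyl-CoA dehydrogenase Hadh were not called (log2 0.17, -0.37 and 0.02), and the hydratase Echs1 was 1.84-fold higher. Of the enzymes for unsaturated chains, Eci2, Ech1 and Decr1 were 2.72-fold, 2.27-fold and 1.60-fold higher and Eci1 and Decr2 were not called.

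Peroxisomal members divided. Ehhadh was at 81.0, 173, 237 and 306 CPM in S3-like cells and 59.2, 70.3, 135 and 98.7 CPM in S1-like cells, 2.66-fold higher (log2 1.41 ± 0.17, edgeR adjusted p = 4.8e-10). Acaa1b was at 372, 415, 458 and 451 CPM against 165, 203, 203 and 191 CPM, 2.55-fold higher (edgeR adjusted p = 9.8e-11). Its near-identical paralog Acaa1a was 1.75-fold lower, and Acox3, an acyl-CoA oxidase for branched chains, 1.97-fold lower. Reads that fit both thiolase copies could have been split between them, so the opposite course of Acaa1a and Acaa1b is uncertain. Abcd3 and Pex11a, a peroxin of peroxisome division, were 1.54-fold and 1.61-fold higher, and Hsd17b4, the other bifunctional enzyme, was not called.

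Both regulators were lower in S3-like cells. Ppargc1a was at 0, 16.9, 11.96 and 13.5 CPM there and at 90.7, 111, 121 and 116 CPM in S1-like cells, 7.71-fold lower (log2 -2.95 ± 0.20, edgeR adjusted p = 2.7e-19). Ppara was at 16.2, 20.7, 10.2 and 14.4 CPM against 51.7, 68.9, 54.7 and 61.9 CPM, 3.83-fold lower (edgeR adjusted p = 5.5e-13). The printed values did not overlap for either gene. In the 7 S3-like cells of day 5, though, the values of both genes lay below the 48.6 CPM that 3 UMIs make there, so their distance from S1-like cells in that library is limited by depth. A per-cell marker gate in place of clusters, which admitted 258, 646, 1733 and 2187 cells as S3-like and 1029 to 6606 as S1-like, left 10 of the 35 called, 7 higher and 3 lower. Ppara was not called with the gate (log2 -0.40 ± 0.07). The gate placed each proximal tubule-like cell by whether its S1 or its S3 markers held more UMIs. Cells that clusters named S2-like, or named for no segment, could fall on either side, so the gate compares a different mix of cells. The proximal tubule markers stood at 54.4% to 59.3% of the whole class's level in S3-like cells, and the median mitochondrial share was 20.9%, 23.4%, 13.6% and 18.5% there and 23.1%, 17.6%, 20.6% and 21.0% in S1-like cells. With a mitochondrial limit of 25% per cell 16 of the 35 were higher and 7 lower, with a median of 0.52. The part of the proximal tubule markers in the result was not tested.

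In S2-like cells the peroxisomal genes Acaa1b and Ehhadh led the difference from S1-like cells. Of the 35 genes 11 were higher and 2 lower, where 8.61% of the 11791 genes tested were called higher and 8.76% lower, and the median log2 fold change was 0.26 over the 35 and -0.01 over all genes. Acaa1b was at 459, 580, 674 and 583 CPM in S2-like cells, 3.07-fold above S1-like cells (log2 1.62 ± 0.08, edgeR adjusted p = 1.3e-07). Ehhadh was at 136, 195, 373 and 240 CPM, 2.62-fold higher (log2 1.39 ± 0.08, edgeR adjusted p = 2.6e-07). In neither gene did the segments overlap in CPM. Crot (1.94-fold), Cpt2 (1.82-fold), Eci2 (1.75-fold), Acadl (1.75-fold), Pex11a (1.74-fold), Acadm (1.55-fold), Abcd3 (1.52-fold), Slc25a20 (1.51-fold) and Acad10 (1.51-fold) were also higher. Acaa2 was lower already here, at 148, 163, 195 and 189 CPM, 2.31-fold below S1-like cells (log2 -1.21 ± 0.09, edgeR adjusted p = 1.9e-06), and so was Acaa1a, 1.55-fold. Cpt1a (log2 0.27 ± 0.09), Acadvl (0.15 ± 0.07), Ppara (-0.07 ± 0.08) and Ppargc1a (-0.49 ± 0.09) were not called. The 13 injury markers summed to 5105, 6393, 2947 and 1604 CPM in S1-like cells and to 2081, 2373, 1327 and 416 CPM in S2-like cells. In S3-like cells they summed to 5976, 5668, 4624 and 777 CPM. The part of these markers in the differences between segments was not tested.

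**Figure D2:**
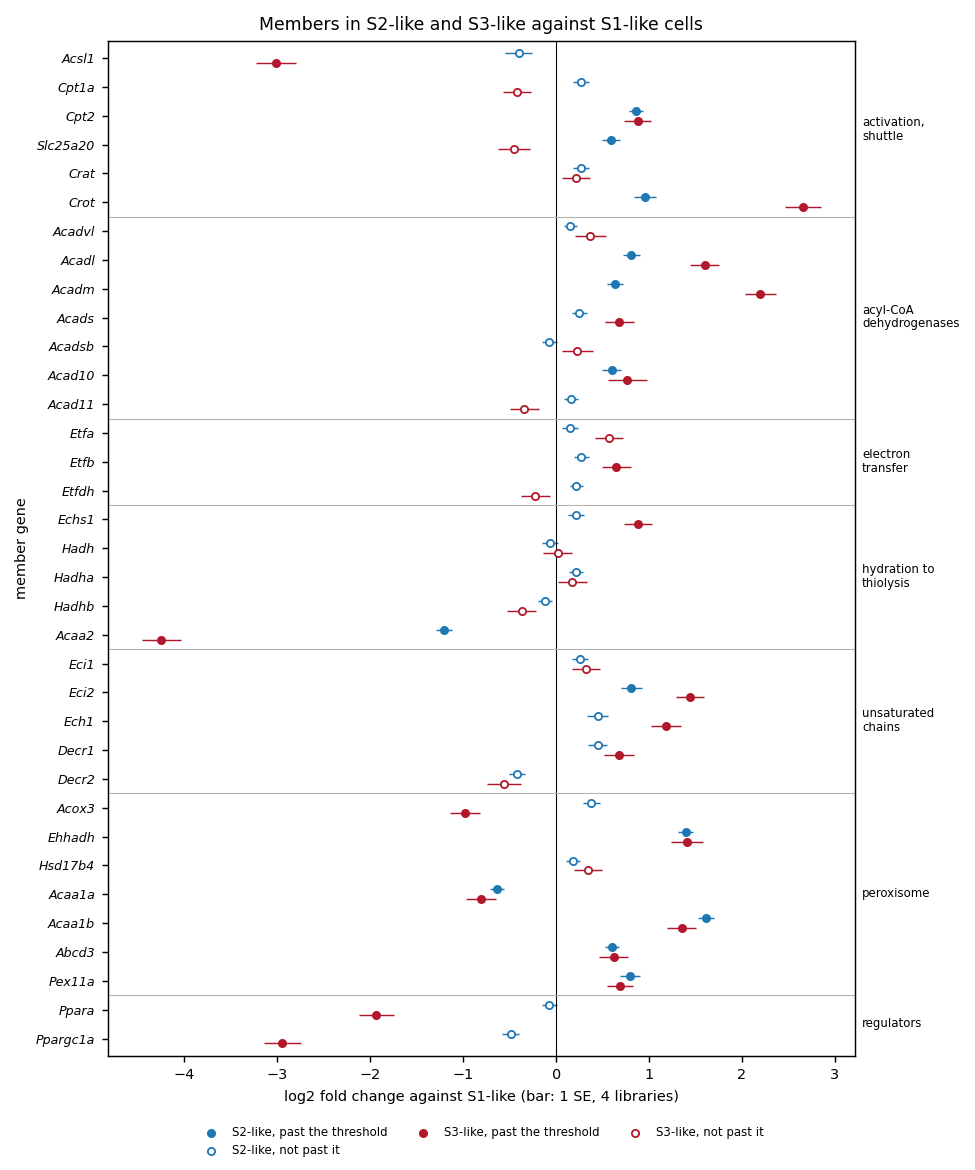
Log2 fold change of each of the 35 genes in S2-like (blue) and S3-like (red) cells against S1-like cells, with 1 SE from 4 libraries and filled points for genes past the threshold. Crot and Acadm lie farthest to the right in red and Acaa2, Acsl1 and Ppargc1a farthest to the left, while Acaa1b sits at 1.62 and 1.35 and Ehhadh at 1.39 and 1.41 in S2-like and S3-like cells. The 2 contrasts share the S1-like cells.

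Other genes of fatty acid metabolism also differed between segments. Of 110 such genes 99 were tested in S3-like cells and 31 were higher and 20 lower, beside 17.8% and 23.4% of all genes tested. The ketone body enzyme Bdh1 (log2 7.79 ± 0.20) and the fatty acid transporter Cd36 (6.56 ± 0.21) were higher, and the binding protein Fabp1 (-6.26 ± 0.65) was lower. In S2-like cells 25 of 100 were higher and 3 lower, beside 8.61% and 8.76% of all genes tested. Bdh1 (5.16 ± 0.15) and Cd36 (4.77 ± 0.20) were again among the higher. Of 17 nuclear-encoded respiratory chain genes 2 were higher in S3-like cells, and their median was 0.28 there and -0.20 in S2-like cells.

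In injured tubule-like cells 34 of the 35 genes were lower than in proximal tubule-like cells and 0 were higher, with a median log2 fold change of -1.05 against -0.02 over all 11476 genes tested. Among all genes 18.4% were called lower and 18.2% higher. All 35 edgeR log2 fold changes were negative, and DESeq2 likewise called 34 lower and 0 higher. The 1 gene not called was Acadl, at 255, 253, 286 and 228 CPM in injured tubule-like cells and 251, 270, 330 and 307 CPM in proximal tubule-like cells (log2 -0.54 ± 0.13, edgeR adjusted p = 0.0089). With library totals in place of TMM the median of all genes moved to 0.33 and 22 of the 35 were lower, and relative to all genes the median of the 35 was -1.03 with TMM and -1.02 with library totals. At a clustering resolution of 2, which kept 95, 61, 129 and 84 injured tubule-like cells, the median of the 35 was -1.63 and 34 were again lower. The same 22 genes were called lower under all 13 settings tried, among them Cpt1a, Acadm, Acadvl, Ehhadh, Acaa1b and Ppara.

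The 4 genes with the largest differences were the thiolases Acaa2 and Acaa1b and the peroxisomal Ehhadh and Acox3. By role the median log2 fold change was -1.26 for electron transfer, -1.19 for activation and the shuttle and -1.11 for the peroxisomal genes. Acaa2 was at 47.4, 70.8, 78.5 and 92.0 CPM in injured tubule-like cells, against 294, 264, 323 and 336 CPM in proximal tubule-like cells, 5.55-fold lower (log2 -2.47 ± 0.16, edgeR adjusted p = 9.6e-06). Acaa1b was at 60.6, 138, 181 and 92.0 CPM against 361, 397, 508 and 430 CPM, 4.88-fold lower (log2 -2.29 ± 0.22, edgeR adjusted p = 6.2e-05). Ehhadh was at 17.8, 53.1, 63.7 and 46.7 CPM against 99.7, 124, 264 and 180 CPM, 4.73-fold lower (log2 -2.24 ± 0.21, edgeR adjusted p = 5.7e-05). For these 3 genes every injured value lay below every proximal value, and for each of them the day 5 library without Lac.z was lowest in the injured cells. Acox3 was 3.38-fold lower and Acad11, a dehydrogenase for long chains, 3.15-fold lower.

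Mitochondrial members were lower at each step of the pathway. Cpt1a was at 44.1, 60.7, 77.5 and 49.4 CPM against 79.1, 83.4, 112 and 91.2 CPM, 2.02-fold lower (log2 -1.01 ± 0.14, edgeR adjusted p = 3.5e-04). All 6 genes of activation and the shuttle were lower, Cpt2 (2.75-fold) and Acsl1 (2.70-fold) the most. Acadm was at 195, 225, 292 and 237 CPM against 413, 414, 551 and 571 CPM, 2.63-fold lower (log2 -1.40 ± 0.14, edgeR adjusted p = 6.9e-05). Acadvl, at 61.0, 79.3, 113 and 82.3 CPM against 127, 113, 150 and 134 CPM, was 2.03-fold lower. All 3 electron transfer genes were lower, Etfb 2.56-fold, and so were Hadh 2.74-fold, Hadhb 1.56-fold and Hadha 1.53-fold.

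Ppara was at 17.8, 44.8, 40.2 and 32.9 CPM in injured tubule-like cells and at 48.7, 65.3, 43.0 and 50.0 CPM in proximal tubule-like cells, 1.97-fold lower (log2 -0.98 ± 0.20, edgeR adjusted p = 0.0038). The ranges overlapped, although within each library the injured value was the lower. Ppargc1a was at 39.4, 52.8, 49.9 and 90.6 CPM against 70.2, 91.3, 78.2 and 75.9 CPM and was called lower (1.86-fold, edgeR adjusted p = 0.0016), although the day 28 library, with 76 injured cells, showed the reverse order. That call was lost with library totals (log2 -0.53) and without doublet removal (-0.43, edgeR adjusted p = 0.056).

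**Figure D3:**
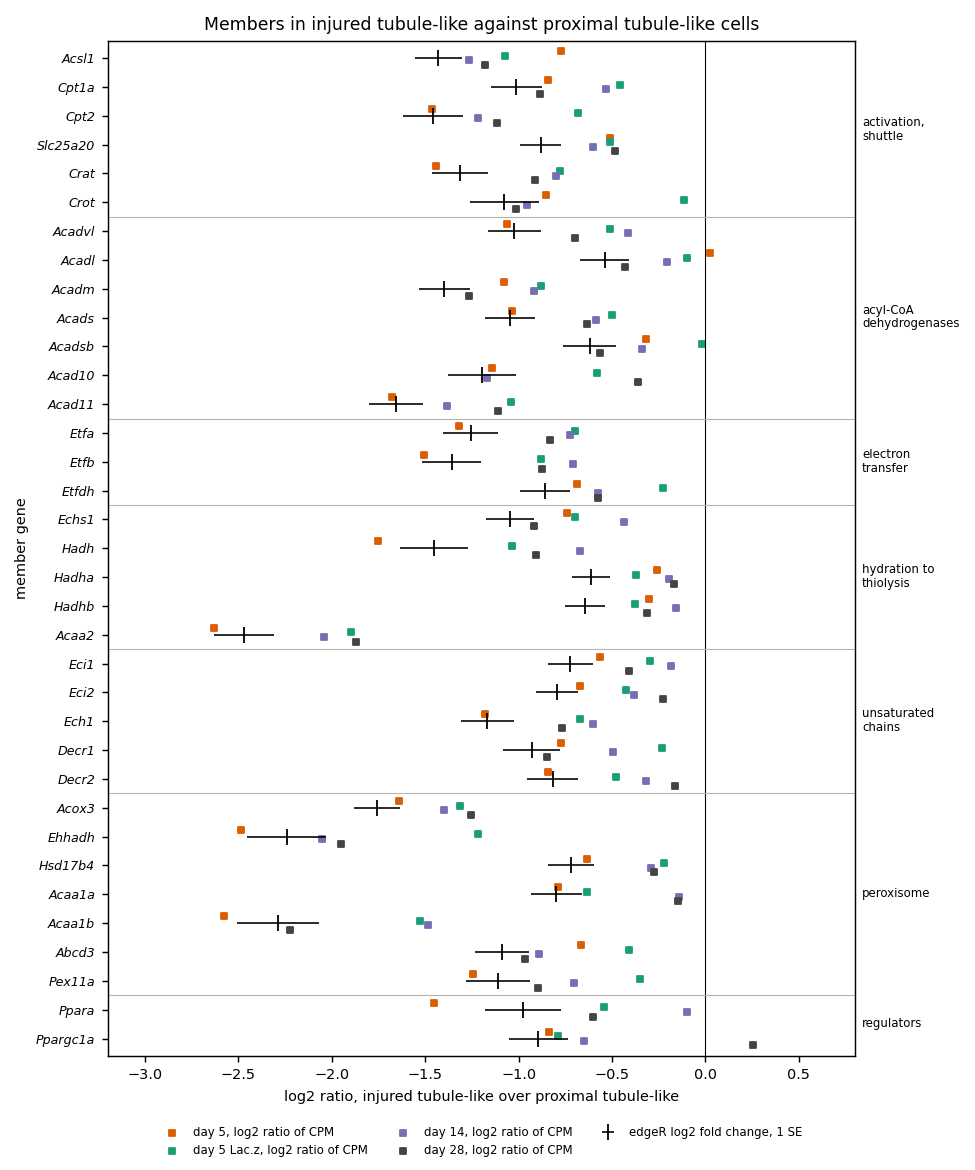
Log2 ratio of CPM in injured tubule-like over proximal tubule-like cells in each library (squares) and the edgeR log2 fold change with 1 SE (black) for each of the 35 genes. Nearly all squares lie left of 0, Acaa2, Acaa1b and Ehhadh farthest, and the edgeR values lie left of most squares because TMM scaling centres all genes.

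Several measures moved with this contrast. The 12 proximal tubule markers together reached 20.2%, 47.3%, 46.6% and 37.0% of their proximal level in injured tubule-like cells, and the 8 thick ascending limb markers summed to 752, 267, 331 and 670 CPM there, against 212, 209, 281 and 264 CPM in proximal tubule-like cells and 21264 to 27032 CPM in thick ascending limb-like cells. The median share of mitochondrially encoded UMIs was 9.3%, 12.6%, 8.6% and 7.5% in injured tubule-like cells and 21.6%, 18.6%, 17.7% and 19.6% in proximal tubule-like cells. Macrophage markers summed to 464 to 1362 CPM in the injured class and 191 to 631 CPM in the proximal class. With mitochondrially encoded genes left out, a setting chosen after seeing the data, 33 of the 35 were lower; the part of the other measures in the result was not tested. Of the other fatty acid genes, 72 of 99 tested were lower and 4 higher, beside 18.4% and 18.2% of all genes tested. Of 17 nuclear-encoded respiratory chain genes 16 were lower (median log2 -0.85), so the difference was not limited to the 35 genes. Of 12 other peroxisomal enzymes 9 were lower, whereas Scd2, a fatty acid desaturase (log2 2.46 ± 0.53), and Acsl5, another acyl-CoA synthetase (1.82 ± 0.23), were higher.

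Tubule classes beyond the proximal tubule carried a different set of these genes. Ppargc1a and Hadhb were higher in thick ascending limb-like, distal convoluted tubule-like and intercalated-like cells than in proximal tubule-like cells, Acadsb was higher in the first 2, and the peroxisomal genes were lower in all 3. In distal convoluted tubule-like cells 4 of the 35 were higher and 24 lower, where 21.5% of 11608 genes tested were called higher and 25.1% lower. In thick ascending limb-like cells 3 were higher and 24 lower, where the shares of all genes were 21.1% and 23.8%. In intercalated-like cells 3 were higher and 28 lower, beside 21.8% and 27.7% of all genes. The median log2 fold changes of the 35 were -1.03, -0.94 and -1.11. With library totals the medians of all genes moved to 0.27, 0.18 and 0.30, and the splits became 6 higher and 20 lower, 5 and 21, and 4 and 21.

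Ppargc1a was at 187, 278, 292 and 497 CPM in distal convoluted tubule-like cells, at 211, 264, 312 and 481 CPM in thick ascending limb-like cells and at 310, 261, 235 and 362 CPM in intercalated-like cells, each above the 70.2 to 91.3 CPM of proximal tubule-like cells in every library. The differences were 3.17-fold, 3.35-fold and 2.84-fold (edgeR adjusted p = 1.9e-06, 9.9e-07 and 2.4e-08). Acadsb, which acts on short branched chains from isoleucine as well as on short fatty acids, was at 102, 161, 196 and 196 CPM in distal convoluted tubule-like cells and 101, 131, 210 and 215 CPM in thick ascending limb-like cells against 31.0 to 34.4 CPM in proximal tubule-like cells. It was 4.17-fold and 4.27-fold higher (edgeR adjusted p = 8.5e-08 and 3.4e-07) and was not called in intercalated-like cells (log2 0.46 ± 0.14). Hadhb was 1.88-fold, 1.66-fold and 1.82-fold higher, and its partner subunit Hadha 1.60-fold higher in intercalated-like cells. Cpt1a was at 120, 194, 216 and 168 CPM in distal convoluted tubule-like cells, 1.55-fold higher (log2 0.64 ± 0.13, edgeR adjusted p = 9.7e-04), a call lost without the Lac.z library (0.47), with no filter (0.57) and with the mitochondrial limit of 25% (0.56). Cpt1a was not called in thick ascending limb-like cells (0.47 ± 0.12), other than with library totals (0.70) or that limit (0.67), and was 2.28-fold lower in intercalated-like cells. Acadvl was not called in any of the 3 (log2 -0.17, -0.08 and -0.18), and the sign of its value changed with scaling.

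Ehhadh was at 4.99, 5.80, 21.6 and 14.9 CPM in distal convoluted tubule-like cells and at 99.7 to 264 CPM in proximal tubule-like cells, 16.4-fold lower (log2 -4.04 ± 0.16, edgeR adjusted p = 2.2e-10). This was 4.69% to 8.24% of its proximal level, while the proximal tubule markers, which these cells should lack, stood at 0.84% to 3.36% of theirs. Acaa1b was at 0, 5.80, 7.74 and 11.2 CPM, the value of 0 allowing up to 7.49 CPM at that library's depth. Its share of the proximal level, at most 2.61%, was at or below that of the markers in each library, so its reads there are taken as background and no fold is given. In thick ascending limb-like and intercalated-like cells its share reached 4.29% and 2.30%, beside 3.22% and 2.40% at most for the markers, and no fold is given there either. Ehhadh was 17.7-fold lower in thick ascending limb-like cells (7.35 to 15.1 CPM) and 29.5-fold lower in intercalated-like cells (0, 6.06, 10.4 and 9.79 CPM). The 0 allows up to 7.81 CPM at that library's depth. The proximal tubule markers stood at 1.26% to 3.22% of their proximal level in the first class and at 0.32% to 2.40% in the second. The part of free RNA in these Ehhadh levels was not tested. Ppara was 5.38-fold, 11.1-fold and 6.42-fold lower in the distal convoluted tubule-like, thick ascending limb-like and intercalated-like classes, with levels of 8.69 to 22.5, 3.59 to 7.29 and 7.81 to 11.7 CPM. All 7 peroxisomal genes were lower in each of the 3 classes. Acox3 was 3.98-fold, 5.69-fold and 6.16-fold lower, and Pex11a 3.71-fold, 3.05-fold and 3.23-fold. The transferases Crot (3.21-fold, 3.63-fold and 2.41-fold) and Cpt2 (3.18-fold, 3.51-fold and 2.98-fold) were lower too, and so was the carrier Slc25a20 (2.36-fold, 2.41-fold and 3.67-fold). The dehydrogenases Acad10 (3.18-fold, 2.85-fold and 2.36-fold) and Acad11 (2.97-fold, 3.82-fold and 2.31-fold) and the reductase Decr1 (2.96-fold, 3.44-fold and 4.41-fold) showed the same direction. Etfb was 2.49-fold, 2.28-fold and 3.36-fold lower and Acaa2 2.04-fold, 1.92-fold and 3.04-fold. Acadm was 2.26-fold, 1.89-fold and 2.96-fold lower, and Hadh, called lower in thick ascending limb-like (3.53-fold) and intercalated-like (5.10-fold) cells, was not called in distal convoluted tubule-like cells. The median log2 fold changes of 17 nuclear-encoded respiratory chain genes were 0.36, 0.37 and 0.26 in the 3 contrasts.

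**Figure D4:**
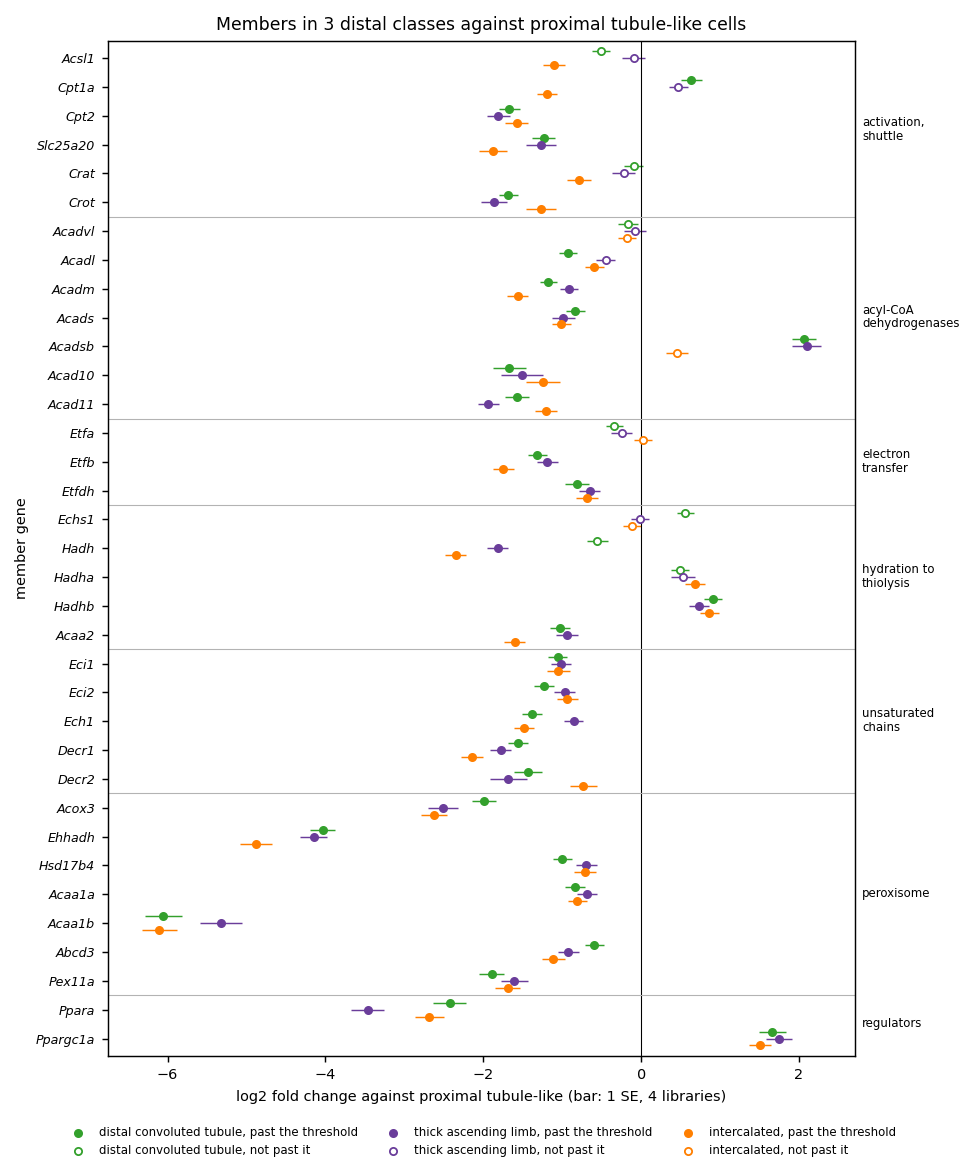
Log2 fold change of each of the 35 genes in distal convoluted tubule-like (green), thick ascending limb-like (purple) and intercalated-like (orange) cells against proximal tubule-like cells, with 1 SE from 4 libraries and filled points past the threshold. Ppargc1a and Hadhb lie right of 0 in all 3 classes and Acadsb is filled there in the green and purple classes, while the rows of Acaa1b, Ehhadh and Ppara lie farthest left. The 3 contrasts share the proximal tubule-like cells.

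Between days few of the 35 genes passed 1.5-fold in the whole class of proximal tubule-like cells, and none was lower by that much. Each comparison is of 1 library with 1 library, its interval covers counting error only, and the 3 comparisons with day 5 share that library. The deposited headers of the later libraries name software version 3.1.0 and the early ones 3.0.2, which cannot be told apart from time. At day 14, 3 of the 35 were at least 1.5-fold higher than at day 5 and 0 lower, where 9.54% of all genes measured were higher and 5.8% lower. Ehhadh stood at 99.7, 124, 264 and 180 CPM, a ratio of 2.65 (95% interval 2.49 to 2.82) at day 14 over day 5 and of 1.81 (1.70 to 1.93) at day 28. Abcd3, at 129, 147, 222 and 209 CPM, was 1.72-fold (1.63 to 1.82) and 1.62-fold (1.53 to 1.71) higher. Acsl1, at 107, 166, 167 and 174 CPM, was 1.56-fold (1.46 to 1.66) and 1.63-fold (1.53 to 1.73) higher. The 3 called at day 28 were Ehhadh, Abcd3 and Acsl1, where the shares of all genes were 7.02% higher and 6.96% lower.

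In the comparisons between days the other 32 genes stayed under the 1.5-fold mark in the whole class. Cpt1a was at 79.1, 83.4, 112 and 91.2 CPM, Acadm at 413, 414, 551 and 571 CPM, Acadvl at 127, 113, 150 and 134 CPM and Acaa1b at 361, 397, 508 and 430 CPM. For Ppargc1a and these 4 genes both later libraries had higher values than the day 5 library. Ppara, at 48.7, 65.3, 43.0 and 50.0 CPM, did not, and Ppargc1a was at 70.2, 91.3, 78.2 and 75.9 CPM. The median log2 ratio of the 35 was 0.26 at day 14 over day 5 (0.04 over all genes) and 0.15 at day 28 over day 5 (0.02 over all genes). In the proximal tubule-like class the injury markers summed to 3467, 4624, 2275 and 909 CPM, the macrophage markers to 631, 430, 420 and 191 CPM, and the median UMIs per cell were 6734, 7654, 5798 and 4624; their part in these ratios was not tested. From day 14 to day 28, 0 of the 35 passed 1.5-fold in either direction, where 2.22% of all genes were higher and 5.75% lower.

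The segments made up different parts of the class in each library, with S2-like cells, which carried more Ehhadh, at 279 of 1351, 938 of 3786, 1471 of 5534 and 3358 of 9351 cells, so the values were also taken within segments. Even within a segment different clusters held most cells. Of the S1-like cells 425 of 564 and 1678 of 1866 lay in clusters PT11, PT12 and PT17 in the 2 early libraries, and 1634 of 1835 and 3198 of 3463 in PT0, PT1, PT6 and PT7 in the later ones. Of the S2-like cells 200 of 279 and 855 of 938 lay in cluster PT5 in the early libraries and 62 of 1471 and 96 of 3358 in the later ones. The part of these clusters in the ratios between days was not tested. In S1-like cells 5 of the 35 were higher at day 14 (8.53% of all genes), with Ehhadh 2.28-fold (2.02 to 2.58), Acsl1 1.90-fold, Abcd3 1.57-fold, Slc25a20 1.55-fold and Acaa2 1.52-fold higher, and 3 at day 28 (8.39%), namely Acsl1, Ehhadh and Abcd3. In S2-like cells 11 were higher at day 14 (10.7%) and 5 at day 28 (7.99%). After Ehhadh, those at day 14 were Abcd3 (1.83-fold), Pex11a (1.73-fold), Acsl1, Eci2, Ech1, Cpt1a, Decr1, Crat, Cpt2 and Etfdh (1.52-fold to 1.65-fold), and those at day 28 Pex11a (1.68-fold), Abcd3 (1.64-fold), Ech1 (1.57-fold) and Acadm (1.52-fold). Ehhadh was there 2.75-fold (2.47 to 3.05) higher at day 14 and 1.77-fold (1.59 to 1.97) at day 28. From day 14 to day 28 it alone among the 35 was at least 1.5-fold lower in S2-like cells. The ratio was 0.644 (0.622 to 0.667), where 6.11% of all genes were lower. Cpt1a passed the mark among the proximal classes in S2-like cells at day 14, at 133 CPM against 83.4 CPM, a ratio of 1.59 (1.39 to 1.83). In S3-like cells, compared only between days 28 and 14, Acadm was higher at a ratio of 1.69 (1.62 to 1.76), and Decr2, a peroxisomal dienoyl-CoA reductase, lower at 0.569 (0.359 to 0.877), beside 2.95% and 9.49% of all genes.

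**Figure D5:**
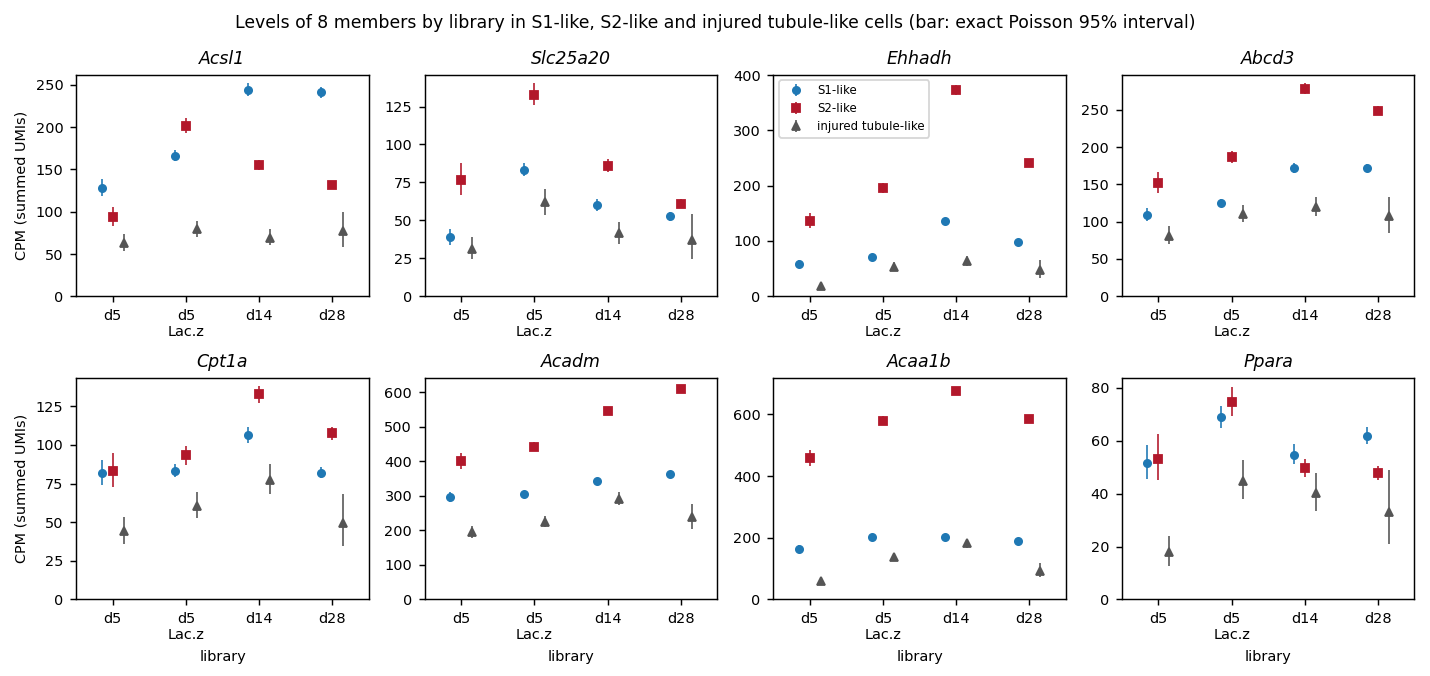
CPM of 8 of the 35 genes in each library in S1-like (blue), S2-like (red) and injured tubule-like (grey) cells, with exact Poisson 95% intervals for counting error. Ehhadh is highest at day 14 in all 3 classes, Slc25a20 is highest in the Lac.z library in all 3, and Acsl1 in S1-like cells is higher in the other 3 libraries than at day 5.

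With Lac.z at day 5, 2 of the 35 genes were at least 1.5-fold higher in proximal tubule-like cells than at day 5 without it and 0 lower, where 6.4% of all genes were higher and 2.09% lower. Slc25a20, the carnitine-acylcarnitine carrier, stood at 44.7 CPM without and 88.1 CPM with Lac.z, a ratio of 1.97 (1.79 to 2.17), and its level at days 14 and 28 was 62.7 and 51.8 CPM. Acsl1 was 1.55-fold (1.46 to 1.66) higher. The median log2 ratio of the 35 was 0.04, against 0.06 over all genes. In S1-like cells Slc25a20 alone passed 1.5-fold (ratio 2.15, 1.86 to 2.51; 6.06% of all genes were higher), and in S2-like cells Acsl1 (2.15, 1.89 to 2.46), Slc25a20 (1.73, 1.5 to 2.01) and Hadha (1.58, 1.40 to 1.78) did, beside 6.13% of all genes.

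Other fatty acid genes of the proximal tubule-like cells also differed. With Lac.z 13 of 98 measured were at least 1.5-fold higher and 2 lower, beside 6.4% and 2.09% of all genes. Among the higher were Cyp4a14, an omega-hydroxylase (4.99-fold, 4.57 to 5.45), Angptl4 (2.69-fold, 2.51 to 2.88) and Pdk4, which shuts off glucose oxidation (2.56-fold, 2.33 to 2.81). At day 14 over day 5, 18 of 99 were higher and 4 lower, beside 9.54% and 5.8% of all genes. Pdk4 was 5.08-fold (4.64 to 5.56) and Angptl4 4.06-fold (3.80 to 4.35) higher. At day 28 over day 5, 16 of 100 were higher and 4 lower, beside 7.02% and 6.96% of all genes. From day 14 to day 28, 2 were higher and 10 lower, beside 2.22% and 5.75% of all genes, with Pdk4 at a ratio of 0.32.

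In injured tubule-like cells 34 of the 35 genes had enough UMIs to be compared. At least 1.5-fold higher than at day 5 were 11 with Lac.z (11.5% of all genes higher, 12.6% lower), 14 at day 14 (12.9% and 10.5%) and 14 at day 28 (17.5% and 7.63%), and 0 were lower in each. Ehhadh had ratios of 2.98 (2.12 to 4.28), 3.58 (2.56 to 5.12) and 2.62 (1.62 to 4.22), Acaa1b of 2.28, 2.99 and 1.52, Ppara of 2.52, 2.26 and 1.85, Pex11a of 2.33, 1.91 and 1.80, and Hadh of 1.54, 2.13 and 1.95. The median log2 ratios of the 34 were 0.41, 0.55 and 0.53. In the same libraries the proximal tubule markers of this class stood at 47.3%, 46.6% and 37.0% of their proximal level, against 20.2% at day 5, and the injury markers summed to 28451 CPM at day 5 and to 22732, 21497 and 12318 CPM. The class also lay in different clusters: 72 of 133 cells at day 5 came from the parts of cluster 21, 167 of 239 with Lac.z from cluster PT20, and 198 of 322 at day 14 from cluster PT21, while at day 28 these held 24, 22 and 30 of 76. The part of markers and clusters in these ratios was not tested.

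Outside the proximal tubule, Ppargc1a was higher at day 28 than at day 14 in distal convoluted tubule-like cells (497 against 292 CPM, ratio 1.70, 1.55 to 1.88) and in thick ascending limb-like cells (481 against 312 CPM, ratio 1.54, 1.39 to 1.72), where 8.32% and 13% of all genes were higher, while the proximal tubule-like values were 75.9 and 78.2 CPM. The median share of mitochondrially encoded UMIs in distal convoluted tubule-like cells was 20.4% at day 14 but 7.5% at day 28, and in thick ascending limb-like cells it was 21.9% and 11.4%. The part of this share in the ratios was not tested. In macrophage-like cells 7 of the 35 were higher at day 28 than at day 5, where 16.9% of all genes were. Acsl1 was among them, at 35.1, 40.6, 41.9 and 68.0 CPM in the 4 libraries (ratio 1.94, 1.65 to 2.27). Different clusters made up the class: cluster 3, led by Arg1 and Gpnmb, held 1519 of 3696 cells at day 5 and 2 of 436 at day 28, and cluster 2, led by Ccl4 and Cd14, held 1061 and 298. The part of this in the ratios was not tested. Ehhadh and Acaa1b had the largest ratios there, but Acaa1b stood at 0.61%, 2.14%, 2.58% and 6.18% of its proximal level in the 4 libraries, beside 0.56%, 1.78%, 2.77% and 6.08% for the proximal tubule markers, and is taken as background.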

How the data were processed

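Single-cell RNA of whole kidney was counted in 4 libraries, 1 per group. The deposited matrices hold UMI counts per gene and barcode, whole numbers not normalized; per the file headers the matrices were written by software version 3.0.2 (both day 5 libraries) or 3.1.0 (days 14 and 28), and the submitters' processing notes name the build mm10. The aligner, annotation, use of strand and cell calling were not given in the sources used here; the lowest barcode held 502 to 509 UMIs.

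Barcodes passing filters on genes and mitochondrial share were scored for doublets with Scrublet. The highest-scored were removed at a rate preset from the number of barcodes, 478, 460, 858 and 1762 in the 4 libraries. Another 15 barcodes over 1% haemoglobin UMIs were also removed. Scanpy 1.11.5 and leidenalg 0.10.2 clustered cells (2000 variable genes, 30 components, 20 neighbours) without the 35 genes and the other fatty acid genes. The thresholds for naming clusters and the haemoglobin limit were set after seeing the clusters. The 35 genes and all lists were chosen with earlier results of these data known.

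UMIs were summed per class and library. Classes were compared with edgeR 4.0.16 (R 4.3.3; quasi-likelihood, TMM, library as a block because both classes come from the same library, Benjamini-Hochberg over all genes tested); the SE follows from the F statistic. The 4 libraries are replicates of a class contrast only and differ in day and Lac.z. The p-values rest on the spread between them as edgeR estimates it, sharing information over genes, and not on each gene's own spread alone. The same holds for the SE. At a similar ratio of change to SE, adjusted p-values were far smaller in the S3-like than in the S2-like contrast. The size of a p-value is therefore not compared between contrasts and does not measure how closely the libraries repeat a gene's change. Comparisons of 2 libraries give CPM ratios with exact conditional binomial 95% intervals, called at 1.5-fold with at least 50 UMIs over both, covering counting error only. The test was tried on simulated data. Described in full are up to 10 genes per contrast with the largest change past the threshold, and Cpt1a, Acadm, Acadvl, Ehhadh, Acaa1b, Ppara and Ppargc1a throughout; of other fatty acid genes, those with the largest change per list. A gene that the rule names is not reported here, and in comparisons of 2 libraries in injured tubule-like and macrophage-like cells only some of the genes it names are given. Alternatives were DESeq2 1.42.0, no filter, library totals, no block, each library left out, a mitochondrial limit of 25%, no doublet removal, a clustering resolution of 2, a per-cell marker gate, injured cells counted in the class, a minimum of 200 UMIs and, chosen after seeing the data, leaving out mitochondrially encoded genes.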

Additional observations from a re-analysis of the deposited data

How the results depend on the processing

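Counts of called genes stayed within 1.5 times the reported count in 92 of 97 alternatives. The others were 10 of 35 for S3-like against S1-like cells with a per-cell marker gate, 22 for injured tubule-like against proximal tubule-like cells with library totals, 5 for day 14 over day 5 with a mitochondrial limit of 25%, and 6 (day 14) and 5 (day 28) over day 5 with injured cells counted in the class; the cause was not tested. Leaving out each library in turn gave 16 to 22 called in S3-like, 11 to 13 in S2-like, 33 to 35 in injured tubule-like, 27 to 28 in distal convoluted tubule-like, 26 to 28 in thick ascending limb-like and 29 to 31 in intercalated-like cells. Without the library block, which pairs the classes of a library, the counts were 21, 10, 34, 27, 27 and 30 in the same order. Of 1188 alternative values for single genes 1131 counted as unchanged. In the class contrasts this means the same direction and call. For ratios between libraries it means a value inside the counting interval of the main ratio, and the call was not checked. Among these ratios a change of sign was recorded only for genes past 1.5-fold. Calls were lost in 9: Ppara in S3-like cells with the gate, Acaa1a in S2-like cells with the 25% limit and without doublet removal, Acadm in S2-like cells without day 28, Ppargc1a in injured tubule-like cells in 2 settings and Cpt1a in distal convoluted tubule-like cells in 3. In 7 a call was gained, 6 for Cpt1a and 1 for Ppargc1a, and 32 ratios between libraries moved beyond their counting interval, 21 of them with injured cells counted in the class. A further 9 changed sign, all of them in values that were not called: Cpt1a in S3-like cells with the gate (log2 0.085), Ppara in S2-like cells without day 28 (0.0067, the lowest with a library left out being -0.14), and Acadvl with library totals in distal convoluted tubule-like (0.13), thick ascending limb-like (0.14) and intercalated-like (0.20) cells, and in thick ascending limb-like cells without day 5 (0.0028), without day 28 (0.0078, the lowest with a library left out being -0.22), with the 25% limit (0.098) and without doublet removal (0.14). Genes at a few CPM in the 7 S3-like cells of day 5 are limited by depth.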

Other observations

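A few of the 35 genes differed between libraries in cells outside the tubule. In T cell-like cells Cpt1a, which admits long-chain fatty acids to mitochondria, was at 6.44, 9.20, 20.8 and 19.2 CPM in the day 5, Lac.z, day 14 and day 28 libraries, from 15 UMIs at day 5 and 71 at day 14. The ratio of day 14 to day 5 was 3.23 (95% interval 1.83 to 6.07), and that of day 28 to day 5 was 2.97 (1.59 to 5.85), where 6.86% and 9.62% of all genes were at least 1.5-fold higher. T cell-like cells lay in different clusters, one holding 7 of 428 cells at day 5 but 158 of 680 and 142 of 534 at days 14 and 28, and another 151, 13 and 10. In endothelial-like cells Acadm was at 51.5, 58.7, 60.8 and 113 CPM, a ratio of 2.20 (1.56 to 3.14) between day 28 and day 5, and Cpt1a at 16.8, 29.4, 24.2 and 39.7 CPM, a ratio of 2.37 (1.30 to 4.55), where 10.5% of all genes were at least 1.5-fold higher. The proximal tubule markers in these cells stood at 0.5%, 4.0%, 3.1% and 6.9% of their proximal level in endothelial-like cells and at 0.3%, 2.2%, 3.1% and 5.4% in T cell-like cells, and the part of markers and clusters in these ratios was not tested. Each is a comparison of 1 library with 1 library, chosen after its values were seen.

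In proximal tubule-like cells the fatty acid desaturase Scd1 was at 1.99, 3.58, 32.1 and 17.1 CPM in the same order, a ratio of 16.1 (10.6 to 25.8) for day 14 over day 5. Cyp4a12a, an omega-hydroxylase, went the other way, from 27.8 CPM at day 5 to 7.21 CPM at day 14, a ratio of 0.26 (0.22 to 0.30).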
